A study of Mus musculus with 3 samples.

Results

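Klf9 and its Krüppel-like paralogs were examined for chromatin occupancy by the thyroid hormone receptor TRα1 in GABAergic neurons of the adult mouse striatum. The set held 10 genes, which were Klf9, Klf13, Klf16, Klf14, Klf10, Klf11, Klf4, Klf6, Klf7 and Klf12. A TR binding site (TRBS) was given to a gene when its summit, the position of highest coverage, lay within the gene body or less than 30 kb from the 5-prime end of the gene. This rule selected 38 of the 23988 TRBS of the deposited list, of which 8 lay at Klf9 and 30 at the 9 paralogs. Of the 10 genes, 8 had at least 1 TRBS, whereas Klf14 and Klf6 had none. By the same rule 57.7% of all 21938 protein-coding genes had at least 1 TRBS.

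The study had used 2 ChIP libraries and 1 input library from untreated, euthyroid male mice of the C57BL/6J strain. All of them carried a GS-tagged TRα1, restricted to the GABAergic neurons of the striatum. The labels gave their age as 8 without a unit, and the paper lists this adult dataset at 8 weeks. The tagged receptor came from a conditional ('floxed') construct, and the Cre line was not given in the sources used here. The comparison was thus between immunoprecipitated and input chromatin of tagged animals, with no untagged animals and no change of hormone level among the samples analysed here. The data were a single list of peaks with 1 value per TRBS for the series. The list carries no value per library, and the values given here therefore have neither a replicate error nor a test. A peak list holds no expression values, so the cell type named in the labels was not checked with marker genes. The strength of a TRBS is given as its pileup, the number of ChIP fragments covering the summit, and as its fold enrichment, this number divided by the local background, after adding 1 to both. Over the whole list the median pileup was 21 fragments and the median fold enrichment was 7.40.

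Krüppel-like factors are zinc finger transcription factors that bind GC-rich sequences, in particular GC boxes and CACCC boxes. Klf9, Klf13, Klf14 and Klf16 form a subgroup that represses transcription through the Sin3 co-repressor, and Klf10 and Klf11, known as genes induced by TGF-β, recruit the same co-repressor. Klf4 is a pluripotency factor, Klf6 and Klf7 promote the growth of axons, and Klf12 is a repressor. Klf9 is among the best known genes responding to T3 in brain, where it takes part in the maturation of neurons. TRα1 binds DNA with RXR on DR4 elements, which are a pair of AGGTCA half-sites in the same orientation with a spacer of 4 bases.

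A DR4 element was counted when at most 2 of the 12 half-site bases differed from the consensus. It was found in 5 of the 38 TRBS, 2 at Klf9 and 1 each at Klf13, Klf10 and Klf12. DR4 was present in 17.3% of all TRBS of the list, and 17.8% of protein-coding genes had a TRBS with DR4, against 4 of the 10 genes here. The matches of 4 of these TRBS are given with 7 bases on each side, on the plus strand of GRCm38 (5′ to 3′). DR4 is the element that TRα1 is known to bind with RXR, but binding to these matches was not tested. The other TRBS with DR4 was the strongest of Klf9. Its 2 overlapping matches had 2 mismatches each and lay 1853 and 1848 bp from the summit. Capitals mark the half-sites.
Klf9, upstream TRBS (chr19:23137456-23137485): ctgggagAGGTGAagtgAGGTCAcagatct
Klf13, intronic TRBS (chr7:63912097-63912126): gaatctgAGGTCAgctgAGGACAacagttt
Klf10, downstream TRBS (chr15:38284141-38284170): gtgaggcAGTGCAgcaaAGGTCAcagccag
Klf12, intronic TRBS, first match (chr14:100211474-100211503): aggctcaAGCTAAaaagAGGTCActggaag
Klf12, intronic TRBS, second match (chr14:100211484-100211513): taaaaagAGGTCActggAAGCCAacactga

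The matches shown for Klf9 and Klf13 had 1 mismatch each, and those of Klf10 and Klf12 had 2. In the 3 TRBS of Klf9 (chr19:23137456-23137485), Klf13 and Klf10 the match lay 18, 17 and 64 bp from the summit. The 2 overlapping matches of Klf12 lay 294 and 304 bp from the summit. DR4 within 100 bases of the summit was thus present in 3 of the 38 TRBS, against 13.1% of all TRBS. The number of bases searched differed between TRBS. In the whole list DR4 was found in 15.1% of TRBS under 500 bp wide and in 37.0% of the 27 TRBS of at least 2000 bp.

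Klf9 (chr19:23141226-23168134, plus strand) had the most TRBS of the 10 genes, with 4 upstream of its 5-prime end and 4 in the gene. The most distant (chr19:23121523-23122186, 19516 bp upstream) had a pileup of 14 fragments, the lowest of the list, and a fold enrichment of 5.58. The second (chr19:23123793-23124412, 17080 bp upstream) had a pileup of 84 fragments and a fold enrichment of 24.8, which ranked 1375 in the list. It held an exact AGGTCA half-site and a CACCC box but no DR4. These 2 distal TRBS differed in strength although their summits lay close together.

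The strongest TRBS of Klf9 (chr19:23133923-23136791) was centered 5194 bp upstream of the gene. Its pileup was 244 fragments (95% Poisson interval 214 to 277, counting error only) against a local background of 4.13 fragments. The fold enrichment of 47.7 ranked 235 among 23988 TRBS, within the top 0.980%. It spanned 2869 bp, which ranked 11 in width, and held DR4 only at 1848 bp or more from the summit. Its summit lay outside any gene, 1132 bp from the start of the noncoding gene 2410080I02Rik. The adjoining TRBS (chr19:23137286-23137717, 3738 bp upstream) was weak, with 19 fragments and a fold enrichment of 6.31, and carried the DR4 match with 1 mismatch.

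The 4 TRBS in the Klf9 gene all had a fold enrichment below the median of the list (7.40). Their pileups, from 18 to 25 fragments, lay around the median of 21. The first (chr19:23140979-23142131) covered the 5-prime end, with its summit 271 bp downstream in the untranslated part of the first exon. It had 25 fragments over a local background of 4.62, and its fold enrichment of 4.63 ranked 23779, near the bottom of the list. Next came a TRBS in the intron (chr19:23142240-23142988, 1186 bp downstream) with 18 fragments and a fold enrichment of 6.39. The third (chr19:23143380-23143939) also had 18 fragments, with a fold enrichment of 6.06, and its summit lay 95 bp from the start of the second annotated transcript, which is noncoding. The last (chr19:23146423-23147344, 5427 bp downstream) had 21 fragments and a fold enrichment of 6.41. None of these 4 TRBS held a DR4 element, and 3 of them had a GC box within 100 bases of the summit.

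**Figure D1:**
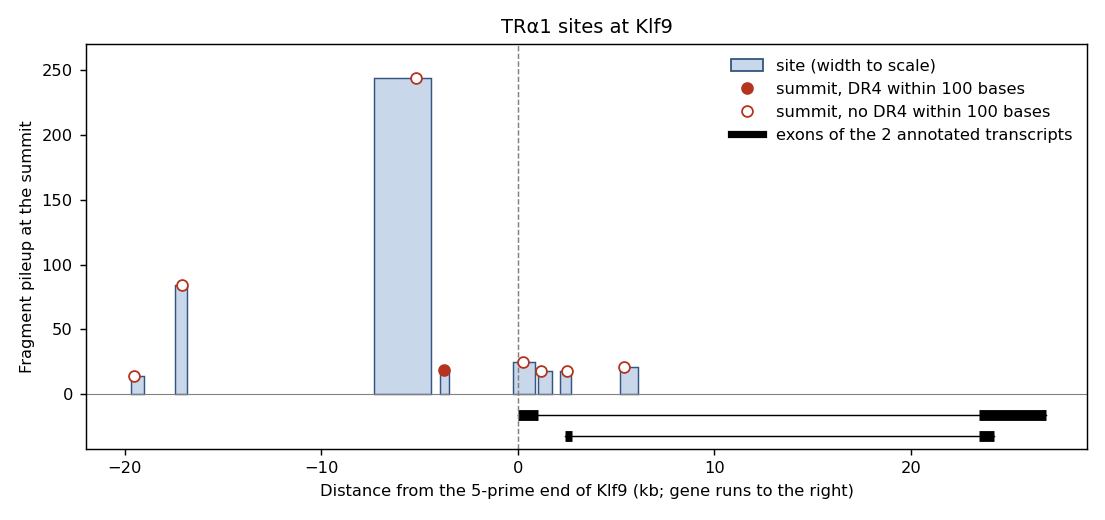
TRα1 binding sites at Klf9. The horizontal axis is the distance from the 5-prime end of the gene in kb and the vertical axis is the fragment pileup at the summit. Each bar spans the width of a TRBS and its height is the summit value, not a coverage profile, circles mark the summits (filled where DR4 lay within 100 bases), and black boxes are the exons of the 2 transcripts. The TRBS 5194 bp upstream reaches 244 fragments, whereas 6 of the 8 remain between 14 and 25.

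In total 6 of the 8 TRBS of Klf9 had their summit within 5.5 kb of the 5-prime end, in a span of 13.4 kb of which 6.69 kb was covered by TRBS. The same number, 6 of 8, lay below the median fold enrichment of the whole list (7.40). By pileup, 3 of the 8 lay above the median of 21 fragments. Klf9 was the protein-coding gene with the nearest 5-prime end for all 8 TRBS, so that none had a closer protein-coding neighbor. Among genes of any type, 2410080I02Rik started nearer to the summits of the 4 upstream TRBS (13190, 10754, 1132 and 2588 bp). Mir1192 started nearer to that of the last TRBS (2778 bp). The median fold enrichment of its TRBS was 6.35, with a range of 4.63 to 47.7.

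A total of 372 protein-coding genes (1.70%) had 8 or more TRBS, and 337 genes (1.54%) had a TRBS at least as enriched as the strongest of Klf9. With a score (10 times the −log10 q-value) of at least 200, which left 2 TRBS at Klf9, 9.80% of genes had as many or more. The share was 0.360% when the gene body was not counted, 0.666% when each TRBS went to the nearest 5-prime end and 0.447% among genes with a territory of similar length. Without these restrictions, both conditions were met by 42 genes (0.191%), Klf9 included. The territory searched around Klf9 reached 30 kb on each side of its 5-prime end, since the gene is shorter than that, and its density was 1.33 TRBS per 10 kb. The territories of all protein-coding genes held 0.154 TRBS per 10 kb, and 0.324% of genes were at least as densely occupied as Klf9.

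**Figure D2:**
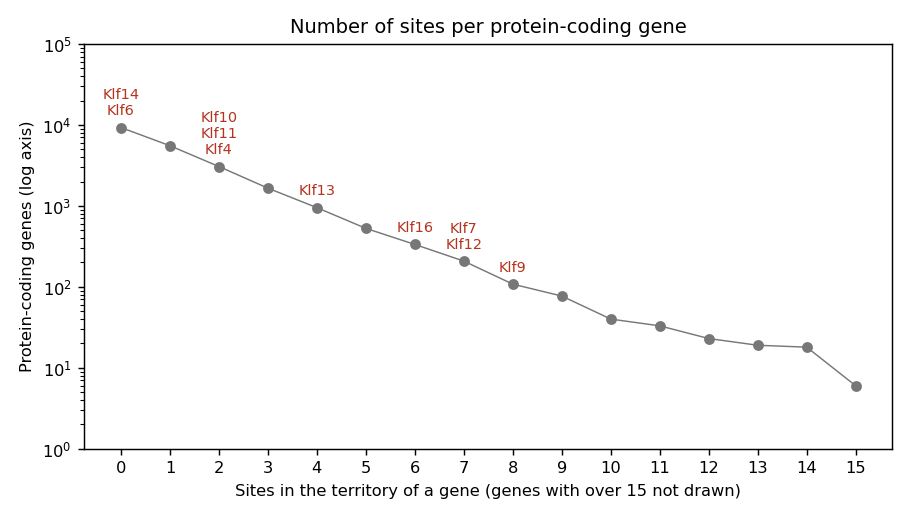
Number of TRBS per protein-coding gene. The horizontal axis is the number of TRBS in the territory of a gene and the vertical axis, on a log scale, is the number of genes with that number. Points are genes grouped by number and the 10 genes described are named at their number, from 0 for Klf14 and Klf6 to 8 for Klf9. The 48 genes with over 15 TRBS are not drawn.

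Among the closest paralogs, Klf13 (chr7:63886351-63938915, minus strand) had 4 TRBS. It held the most enriched of the 38, located in an intron 1418 bp downstream of the 5-prime end (chr7:63937072-63938002). The pileup there was 155 fragments (95% Poisson interval 132 to 181) over a local background of 2.05, with a fold enrichment of 51.1 and rank 180. A second TRBS (chr7:63938130-63939407) overlapped the 5-prime end and had only 22 fragments and a fold enrichment of 5.78. The DR4 match was in another intronic TRBS, 26787 bp downstream (chr7:63911894-63912357), with 28 fragments and a fold enrichment of 10.8. The last (chr7:63910460-63910690, 28328 bp downstream) had 14 fragments. These 2 intronic TRBS lay nearer to the 5-prime end of E030018B13Rik, at 4729 and 6270 bp. All 4 TRBS of Klf13, the most enriched included, also lay in the territory of E030018B13Rik.

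Klf16 (chr10:80567124-80577321, minus strand) had 6 TRBS in a gene-dense region and none held DR4. Each also lay in the territory of 2 to 5 other protein-coding genes. The strongest (chr10:80577455-80578244) was 356 bp upstream of the gene, with 45 fragments and a fold enrichment of 15.8. The 5 others ranged from 5.10 to 11.0. Only 3 of the 6 had Klf16 as the nearest protein-coding gene, and the others had their summits 5078 bp from the start of Rexo1, 83 bp from that of Abhd17a and 83 bp from that of Adat3. Klf14 (chr6:30956023-30959078), the remaining gene of this subgroup, had no TRBS. The summit closest to it was 62153 bp away and had a fold enrichment of 7.40.

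The TGF-β inducible Klf10 (chr15:38291463-38300706, minus strand) had 2 TRBS of very different strength. The one in its intron (chr15:38298811-38300376, 1197 bp downstream of the 5-prime end) had 211 fragments (95% Poisson interval 183 to 241) over a local background of 5.11, and a fold enrichment of 34.7, rank 618. The other, 16615 bp from the 5-prime end and beyond the end of the gene (chr15:38283901-38284263), had 22 fragments and a fold enrichment of 6.70 and carried the DR4 match. Klf11 (chr12:24651274-24662789, plus strand) had a TRBS at its 5-prime end (chr12:24651144-24652177) with 36 fragments and a fold enrichment of 7.57. Its second TRBS (chr12:24680376-24680646, fold enrichment 6.32) was inside Cys1, 1284 bp from the start of that gene, and also in the territory of Rrm2.

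Klf4 (chr4:55527143-55532466, minus strand) had a TRBS 538 bp upstream with 28 fragments and a fold enrichment of 10.8, and another 17475 bp downstream with 22 fragments and a fold enrichment of 8.51. Klf6 (chr13:5861482-5870394) had none, and the closest summit was 51180 bp away with a fold enrichment of 5.58. Klf7 (chr1:64029447-64122282, minus strand) had 7 TRBS, none with DR4. Its strongest (chr1:64055464-64056430) was deep in an intron, 66069 bp from the 5-prime end, with 84 fragments and a fold enrichment of 18.3, while the 6 others ranged from 4.82 to 7.66.

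Klf12 (chr14:99870632-100284679, minus strand) also had 7 TRBS, but over a territory of 444 kb. This gave 0.158 per 10 kb, close to the 0.154 of all protein-coding genes, with a maximum of 10.1 at its 5-prime end (chr14:100284189-100286307). Its TRBS with DR4 (chr14:100210988-100211675) had 16 fragments and a fold enrichment of 6.29. Densities of the others were 1.000 per 10 kb for Klf16, 0.570 for Klf7, 0.484 for Klf13 and 0.333 for Klf10, Klf11 and Klf4. As many TRBS or more as in Klf16, Klf7 and Klf13 were found in 4.17%, 2.64% and 10.9% of protein-coding genes.

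**Figure D3:**
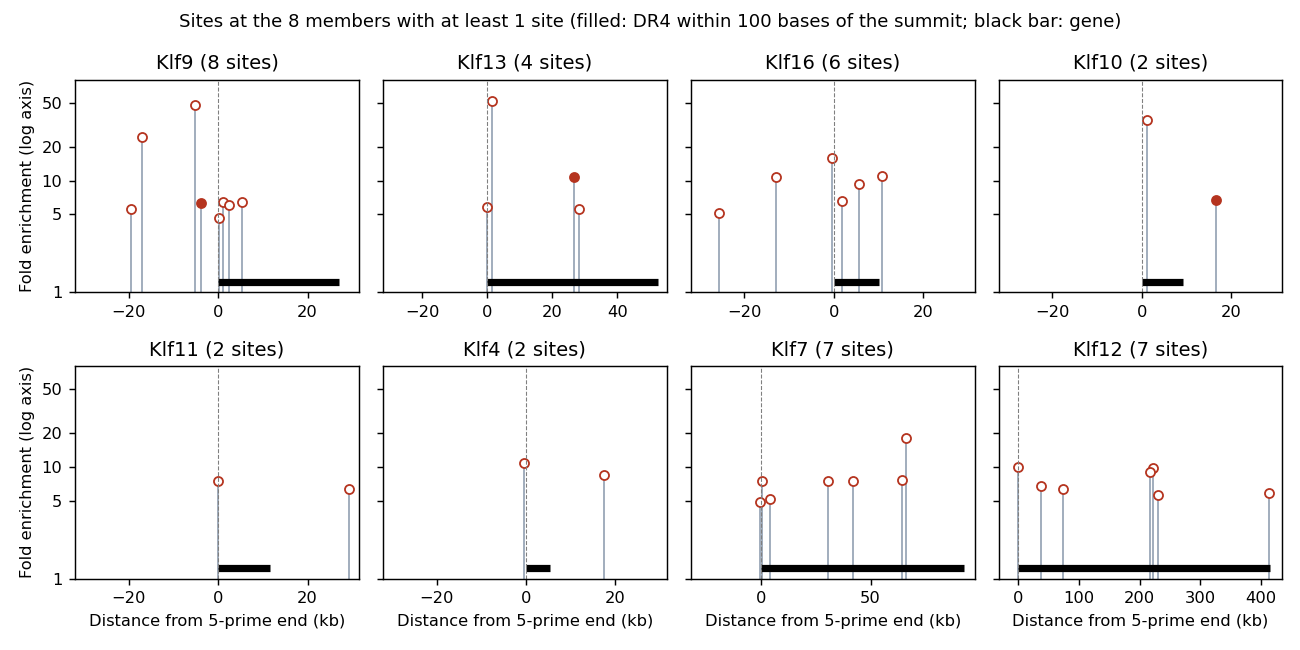
Position and strength of the TRBS of the 8 genes that had at least 1. In each panel the horizontal axis is the distance from the 5-prime end in kb, with the gene drawn as a black bar running to the right, and the vertical axis is the fold enrichment on a log scale. Each circle is a TRBS, filled where DR4 lay within 100 bases of the summit. The filled circles of Klf9 (6.31), Klf13 (10.8) and Klf10 (6.70) lie well under the highest circle of the same gene (47.7, 51.1 and 34.7).

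Klf9 and its paralogs were then compared. The density was 1.33 TRBS per 10 kb at Klf9 against 0.297 over the territories of the 9 paralogs, where Klf12 alone made up 444 of 1009 kb. At Klf16, with a territory as long as that of Klf9, the density was 1.000. The median fold enrichment was 6.35 at Klf9 and 7.51 at the paralogs, so that Klf9 had more TRBS per kb but a lower median. DR4 was present in 2 of 8 and in 3 of 30 TRBS. Upstream TRBS were 4 of 8 at Klf9 and 6 of 30 at the paralogs. These counts depend on gene length, because a long gene adds gene body but no upstream sequence to its territory. Klf7 and Klf12, with territories of 123 and 444 kb, had 1 and 0 upstream TRBS. The upstream share over all genes was not computed. Of the TRBS of the paralogs, 6 of 30 lay nearer to another protein-coding gene, against 0 of 8 at Klf9.

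All 38 TRBS together had a distribution of strength close to that of the whole list. Their median fold enrichment was 7.44 against 7.40, and their median pileup was 22 against 21 fragments. A fold enrichment over 20 was reached by 4 TRBS (10.5%, against 8.86% of the list), and a score of at least 200 by 12 (31.6%, against 31.4%). They were wider and richer in GC, with a median width of 566 bp against 422 bp and a median GC content of 53.7% against 49.6%. A width of at least 1 kb was found in 6 of them (15.8%, against 4.20%). In 7 of the 10 genes a summit lay within 1 kb of the 5-prime end, against 23.2% of protein-coding genes.

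The order of strength depended on the measure. By fold enrichment the Klf13 TRBS (51.1) preceded those of Klf9 (47.7) and Klf10 (34.7), whereas by pileup Klf9 (244 fragments) preceded Klf10 (211) and Klf13 (155). The local background was 2.05 fragments at Klf13, 4.13 at Klf9 and 5.11 at Klf10, against a median of 1.74 in the list. The counting intervals of Klf9 and Klf10 overlapped, and that of Klf13 lay below both. The upstream TRBS of Klf9 at 17080 bp and the intronic TRBS of Klf7 shared a pileup of 84 (95% Poisson interval 67.0 to 104) but differed in fold enrichment (24.8 and 18.3) with backgrounds of 2.43 and 3.65.

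**Figure D4:**
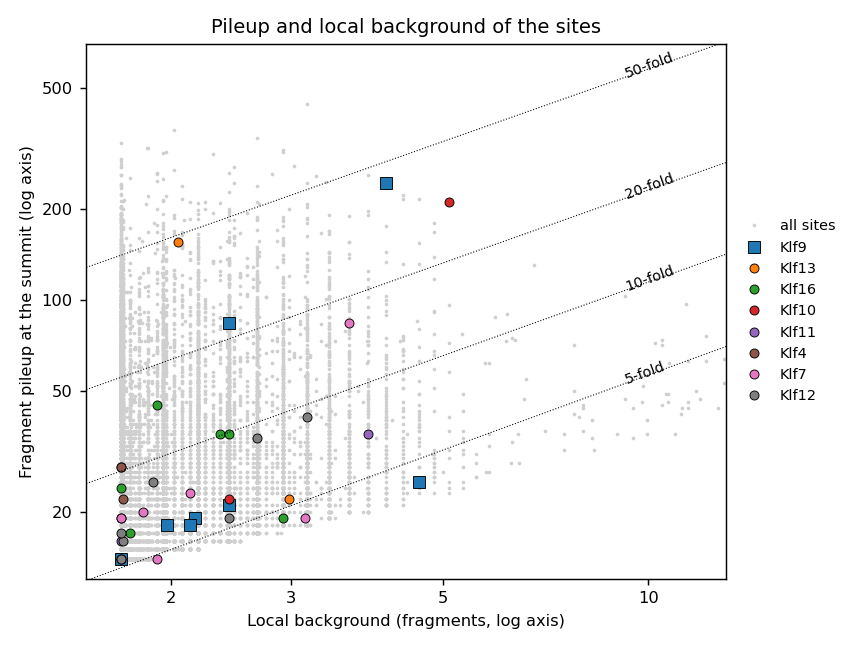
Pileup of each TRBS against its local background. Both axes are in fragments and on a log scale, gray points are all TRBS of the list, colored symbols are the 38 TRBS by gene, and dotted lines join points of equal fold enrichment. Klf9 (244 over 4.13) and Klf10 (211 over 5.11) lie to the right of Klf13 (155 over 2.05), and 70 TRBS outside the axes, none of them at these genes, are not drawn.

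In the 3 genes with DR4 within 100 bases of a summit, another TRBS was the strongest. At Klf9 that strongest TRBS also held DR4, but at 1848 bp or more from its summit. At Klf9 the TRBS with DR4 near its summit had a fold enrichment of 6.31 and ranked 5 of 8, 1456 bp from the summit of the strongest, which was 7.56 times more enriched. The ratio was 4.74 at Klf13, with 25369 bp between the summits, and 5.18 at Klf10, with 15418 bp. This arrangement was common in the list. Of 2473 protein-coding genes with at least 2 TRBS and DR4 close to a summit, 1396 (56.4%) had a strongest TRBS without DR4 close to its summit.

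The sequences around the strongest summits of Klf9 and Klf13 are shown because these were the 2 most enriched of the 38 TRBS. No exact AGGTCA half-site was found within 100 bases of either summit, nor of the strongest summit of the 6 other genes with a TRBS, and 17.8% of all such windows held one. They are given on the plus strand of GRCm38, 201 bases centered on the summit, with GC boxes (GGGCGG or, on the other strand, CCGCCC) in capitals.
Klf9 (chr19:23135932-23136132): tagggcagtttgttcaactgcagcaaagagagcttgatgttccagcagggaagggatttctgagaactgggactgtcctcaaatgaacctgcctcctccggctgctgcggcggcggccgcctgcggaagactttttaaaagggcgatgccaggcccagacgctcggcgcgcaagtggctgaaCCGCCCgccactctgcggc
Klf13 (chr7:63937397-63937597): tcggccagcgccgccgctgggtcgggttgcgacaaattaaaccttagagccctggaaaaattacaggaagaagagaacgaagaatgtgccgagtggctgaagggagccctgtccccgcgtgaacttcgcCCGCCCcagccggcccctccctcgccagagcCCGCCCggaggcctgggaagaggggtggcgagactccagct

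The best DR4 alignment in these windows had 3 mismatches at Klf9 and 3 at Klf13. The windows held 1 and 2 GC boxes, with a GC content of 60.7% and 64.7%. A GC box was present in 18.2% of such windows over all TRBS, and in 60.7% of the 5048 windows with at least 60% GC.

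Over whole TRBS, the GC box was found in 4 of 8 at Klf9 and 15 of 30 at the paralogs, against 28.6% of the list. The CACCC box (CCACCC or its complement) was found in 6 of 8 and 15 of 30, against 40.6%. The E-box CACGTG was present in 3 of 8 and 6 of 30, against 10.3%. These motifs are themselves rich in GC, as were the 38 TRBS, which were also wider than the list, so that more bases were searched. Within 100 bases of the summit the GC box was found in 4 of 8 and 11 of 30, against 18.2%. There the CACCC box was found in 2 of 8 and 11 of 30, against 22.1%, and the E-box in 1 of 8 and 2 of 30, against 4.68%. Near the summit the AP-1 motif (TGACTCA or TGAGTCA, both strands) was found in 0 of 8 and 4 of 30, against 8.38%. The exact half-site AGGTCA, also counted within the direct repeats, was found there in 1 of 8 and 4 of 30, against 17.8%. Over whole TRBS, AP-1 was found in 2 of 8 and 5 of 30, against 14.3%. The half-site was found in 3 of 8 and 9 of 30 whole TRBS, against 30.7%. DR1 is a direct repeat with a spacer of 1 base read by other RXR heterodimers and homodimers. Over whole TRBS it was found in 3 of 8 TRBS of Klf9 and 0 of 30 of the paralogs, against 5.94%. All 3 matches had 2 mismatches, and that in the strongest TRBS lay 1861 bp from the summit. Within 100 bases of the summit DR1 was found in 1 of 8 and 0 of 30, against 2.58%. That match shared a half-site with the DR4 match of the same TRBS.

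Klf9 is also known to respond to glucocorticoids, together with T3, through a shared upstream region. The glucocorticoid response element (GRE), here AGAACA and its inverted copy TGTTCT separated by 3 bases with at most 2 mismatches, was found in 3 of the 38 TRBS against 3.89% of the list. These matches are shown on the plus strand with the half-sites in capitals.
Klf9, strongest TRBS (chr19:23135092-23135106): AGGACAaacTGTTCC
Klf13, intronic TRBS with DR4 (chr7:63912117-63912131): ACAACAgttTGTTCT
Klf7, intronic TRBS (chr1:64057933-64057947): AGAACAaaaTGTTCA

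The Klf9 match had 2 mismatches and lay 933 bp from the summit. Those of Klf13 and Klf7 had 1 mismatch each and lay 4 and 19 bp from the summit. Within 100 bases of the summit the GRE was thus found in 0 of 8 TRBS of Klf9 and 2 of 30 of the paralogs, against 1.76% of the list. At Klf13 the match overlapped the last bases of its DR4 match. The list does not hold glucocorticoid receptor data, and occupancy of these sequences by that receptor was not examined.

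Promoter sequences of RefSeq (GRCm38.p6, 250 bases before to 50 after the start) were matched for 7 of the 10 genes, which excluded Klf16, Klf14 and Klf10. None of the 7 promoters held DR4, against 3.02% of 32851 promoters. GC boxes numbered 4 at Klf11, 4 at Klf4, 3 at Klf13, 1 at Klf6 and 1 at Klf7, and 0 at Klf9 and Klf12, whereas 35.7% of all promoters held at least 1. The Klf9 promoter was nonetheless rich in GC (63.3%, against a median of 52.7%). A TRBS overlapped the promoter of Klf9, Klf13, Klf11, Klf4 and Klf7, against 14.5% of all promoters. The promoters of Klf7 and Klf12 in this table belong to starts 893 and 134883 bp inside the GENCODE gene, and that of Klf12 overlapped no TRBS.

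TRBS just inside and just outside the 30 kb limit were examined. Just inside were those of Klf13 at 28328 bp (in the gene body) and of Klf11 at 29255 bp, with fold enrichments of 5.58 and 6.32. Outside lay a TRBS 34224 bp upstream of Klf9 (5.55) and a much stronger one 49322 bp upstream (chr19:23091406-23092358), with 91 fragments, a fold enrichment of 34.0 and DR4. Klf9 was also the nearest protein-coding gene to this one. A TRBS with DR4 lay 35163 bp upstream of Klf7 (6.21), and 2 lay upstream of Klf16 at 44315 bp (8.59, with DR4) and 45707 bp (34.0), both closer to Csnk1g2. Klf11 had one at 31380 bp (7.81), closer to Cys1.

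Of the 107 other protein-coding genes with as many TRBS as Klf9, 36 also had the same number with DR4. Among these the 3 with the nearest maximum fold enrichment were Rgs7bp (42.6), Fhit (40.9) and Sptbn4 (35.6). This likeness rests on 3 measures from 1 list, and the length of the territory was not among them. Each of the 3 genes is longer than Klf9, and Fhit (chr14:9550092-11162035) is by far the longest. Their TRBS were thus less dense than those of Klf9.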

How the data were processed

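TRα1 ChIP-seq of striatum had used chromatin crosslinked with disuccinimidyl glutarate and formaldehyde and Accel-NGS 2S Plus libraries (2 ChIP, 1 input, grouped by title). The authors aligned reads to GRCm38 (mm10) with Bowtie2 (2.3.2.2) and called peaks with MACS2 (2.1.1.20160309.0), per the submitters' processing notes, and kept peaks with a score of at least 60. Pooling of the ChIP libraries and treatment of duplicates were not stated. Depth per library was not analysed here. No deposited column of per-sample values was left unused (0).

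The deposited pileup is a signal, the fragment coverage at the summit. The deposited fold enrichment is the ratio of pileup to local background, with 1 added to each, from which the background was computed. The deposited −log10 q-value and the score of the authors derive from the same comparison, and the score was used as a filter. Counting intervals are exact Poisson intervals (95%) and cover counting error only, since fragments may be PCR copies.

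Genes were those of GENCODE vM21 (21938 protein-coding of 55413), and sequence was the reference GRCm38. Motifs were searched on both strands in the whole TRBS and in the 201 bases around the summit, as AGGTCA arrangements DR0 to DR8, ER6 and IR0 (at most 2 mismatches in 12), GRE, and exact GC box, CACCC box, AP-1, CRE, E-box and half-site. The scripts were tested on simulated sequences, in Python 3.11.15 with numpy 2.4.6, pandas 2.3.3 and matplotlib 3.10.9. No test was made: the members and lists were chosen with earlier results of these data known. Named genes were the 10 members, genes sharing their TRBS, the 3 most like Klf9 and, of the other Sp/KLF and Sin3 genes, any reaching the maximum of the paralogs or else those with most TRBS. A planned comparison of protein sequences was not run. Some sequences are not reported here. Alternatives covered the score, the distance, the assignment of TRBS to genes and the DR4 mismatches.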

Additional observations from a re-analysis of the deposited data

How the results depend on the processing

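Of 49 alternative values, 35 stayed within 1.5 times the reported one, and the maximum fold enrichment at Klf9 was 47.7 in each of its alternatives. That TRBS had a score of 3257 and lay 5194 bp from the 5-prime end, so that none of the settings could lower the maximum. The 35 include these values. With a score of at least 200, Klf9 had 2 TRBS and the paralogs 10, with DR4 in 1 and 1, and 9.80% of protein-coding genes had as many TRBS as Klf9. With at most 1 mismatch, DR4 was found in 1 TRBS of Klf9 and 1 of the paralogs. With at most 3 mismatches these numbers were 4 and 14. Counting DR4 only near the summit left 1 at Klf9, and a distance of 50 kb gave 5 TRBS with DR4 at the paralogs. The share of genes with as many TRBS as Klf9 was 0.360% when only the distance from the 5-prime end counted, 0.666% when each TRBS went to the nearest 5-prime end, and 0.447% among genes with a territory of similar length (within 20%). These alternatives differ from the reported values by construction, in the TRBS, bases or genes they admit.

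No paired analysis was possible because the list holds no values per library, and leaving out a ChIP library was not possible for the same reason. All values therefore describe 1 list from 2 ChIP libraries of unknown depth, and a gene without a TRBS is one where none passed the threshold of the authors, not one without receptor.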

Other observations

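The rest of the Sp/KLF family and the Sin3 genes had fewer TRBS than Klf9. Of 17 further family members, 16 were in the annotation and 8 of these (50%, against 57.7% of protein-coding genes) had a TRBS, 12 in total and at most 2 per gene. None reached the 7 TRBS or the fold enrichment of 51.1 of the paralogs. The genes with 2 TRBS each were Klf3, Sp1, Sp2 and Sp9, and also Sin3a and Sin3b, which encode the scaffold of the Sin3 co-repressor. The maximum fold enrichment of each was 17.9 at Klf3 (chr5:64811501-64812037, 8385 bp downstream of the 5-prime end), 8.93 at Sp1, 7.03 at Sp2 and 9.09 at Sp9, and among the genes with 1 TRBS Sp6 (17.3) and Sp4 (11.2) exceeded the last 3 of these (both named after their values were seen). Among these 8 genes DR4 was found at Sp2 alone. Sin3a reached 17.9 in a TRBS 964 bp downstream of its 5-prime end (chr9:57072729-57074214) and Sin3b reached 12.6 at 22870 bp, both without DR4.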
